A study of Mus musculus with 9 samples.

Results

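Bone morphogenetic protein (BMP) signaling was examined through 10 genes in whole-tumor RNA-Seq of osteosarcoma (OS): the ligands Bmp2, Bmp4 and Bmp7, the type I receptor Bmpr1a, the secreted antagonists Nog and Grem1, the inhibitory SMAD Smad6, and the target genes Id1, Id2 and Id3. The genes were taken by symbol, and all 10 were found among the 55367 genes of the deposited table. The tumors came from genetically engineered mouse models (GEMMs) of OS. The p53-driven GEMM carries a floxed Trp53 allele and a Cre recombinase under the osteoblast-specific Col2.3 promoter (genotype label Col2.3-Cre/TrpP53fl/+), and 4 of its tumors were sequenced (F187, F325, F331 and F368). The Myc-knockin GEMM adds a c-MycT58A allele behind a Lox-Stop-Lox cassette to the same Cre and floxed Trp53 alleles (p53fl/+), and 5 of its tumors were sequenced (M351, M408, M9, M624 and M664). Both groups therefore share Cre and the floxed Trp53 allele, and normal bone was not analysed here. The group of 6 tumors is given by the study's supporting data, and M351, M9 and M664 were placed by the letter M of their column names. Neither the age nor the sex of the mice is given in the labels. The labels also do not say that each tumor came from a different mouse, so the tests measure the spread between these tumors.

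BMPs are secreted dimers of the TGF-beta superfamily that were first known for inducing bone. They bind type I and type II serine/threonine kinase receptors, which phosphorylate SMAD1, SMAD5 and SMAD9, and these enter the nucleus with SMAD4 to switch on target genes such as Id1, Id2, Id3 and Smad6. NOG and GREM1 bind the ligands outside the cell and keep them from their receptors, whereas SMAD6 blocks the pathway inside the cell. The ID proteins are helix-loop-helix factors without a DNA-binding domain that hold back E proteins and other basic helix-loop-helix factors, and in the osteoblast lineage BMP signals drive differentiation through Runx2 and Sp7.

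None of the 10 genes was called between Myc-knockin and p53-driven tumors with edgeR or limma-voom, whereas DESeq2 called Id1 and Grem1. DESeq2 also called more genes over the whole table than edgeR or limma-voom did. Id1 was higher in 4 of 5 Myc-knockin tumors than in any p53-driven tumor. Nog was higher in all 5, on few reads, and passed the filter on low counts only through Myc-knockin tumors. Bmp7 and Grem1 rested on a few Myc-knockin tumors with high values. Id3 had the highest level per kilobase of the 10 genes and was lowest in M624, M408 and M351, and M664 had its highest value. Among 42 other tested genes of the pathway, edgeR called 4 in Myc-knockin against p53-driven tumors, beside 5.27% of all genes tested. These were a rise of the receptor Acvr2b and falls of the receptor Acvr1, the BMP-binding protein Twsg1 and the ubiquitin ligase Smurf2. None of the 4 was called when F325, F331 or F368 was left out. Few genes of the whole table were called in those fits, with 5 without F368. The call was lost in 13 of 22 alternative analyses for Acvr1, 12 of 22 for Smurf2, 6 of 21 for Acvr2b and 5 of 22 for Twsg1.

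RefSeq promoter windows on GRCm38.p6, the assembly behind mm10, were available for Bmp4, Bmpr1a, Grem1, Smad6, Id2 and Id3, which is 6 of the 10 genes. Each window runs from 250 bases before to 50 bases after the transcription start. They were searched for the SMAD palindrome GTCTAGAC, the GC-rich site GGCGCC that SMAD1 and SMAD5 can bind, and the E-box CACGTG that MYC and MAX can bind. Each of these motifs reads the same on both strands, so a match counts for both, and none overlaps another. The palindrome is in 0.213% of 32817 windows of all genes, the GC-rich site in 11.9% and the E-box in 7.15%. The stretches around the matches are shown because they place the letters that SMADs and MYC recognize next to the genes measured here, in lower case with the motif in capitals. All lie on the minus strand and read 5′ to 3′.
Smad6, chr9:64022050-64022089, palindrome from position -4: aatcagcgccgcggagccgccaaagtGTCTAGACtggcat
Grem1, chr2:113758695-113758752, GC-rich site from position -78: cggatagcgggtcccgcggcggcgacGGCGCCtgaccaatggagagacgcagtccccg
Bmpr1a, chr14:34502713-34502770, GC-rich site from position -198: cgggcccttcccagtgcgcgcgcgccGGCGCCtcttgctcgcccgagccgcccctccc
Id2, chr12:25096292-25096342, GC-rich site from position -231: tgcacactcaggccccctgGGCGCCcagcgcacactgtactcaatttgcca
Bmp4, chr14:46390826-46390883, E-box from position -188: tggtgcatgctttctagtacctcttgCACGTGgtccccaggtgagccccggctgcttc
Positions are counted from the transcription start and give the first base of the motif. The Id3 window holds none of these letters. A match is a description of the sequence and not evidence of binding.

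The libraries differed in depth and in kind. Total gene counts ran from 2716322 to 17073285 per tumor, and the floor of 3 counts corresponded to 0.114 to 2.39 CPM. In M9, M351, F187 and M408, 12 satellite-repeat genes took 81.0%, 67.9%, 44.3% and 23.2% of the counts, against at most 0.0242% in the other 5 libraries, which left 671790 counts elsewhere in M9 and 872935 in M351. The same libraries had reads on chemosensory receptor genes, from which the genomic background expected on each gene was estimated. M624 and M664 stood apart in another way, with 3.47 and 6.35 CPM of the small nuclear RNA Rn7sk against at least 6545 CPM in the other 7 libraries. Without the 4 libraries with satellite reads, M624 and M664 are the only Myc-knockin tumors left. Group and this difference between libraries cannot be told apart in that fit. The targeted gene, Myc, fitted the labels, with 43.5 to 67.1 CPM in the p53-driven and 144 to 1045 CPM in the Myc-knockin tumors (log2 fold change 3.41 ± 0.59 SE, adjusted p = 0.0217). Its adjusted p was 0.0813 without F325, 0.0782 without F331 and 0.0909 without F368.

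Values per tumor are CPM, counts scaled to TMM-normalized library sizes as edgeR gives them. A log2 fold change is Myc-knockin minus p53-driven from edgeR's quasi-likelihood test, given with its standard error (SE) or 95% interval, and its p was adjusted by Benjamini-Hochberg over 15365 tested genes. Calls needed an adjusted p under 0.05 together with more than a 1.5-fold difference. Of all genes tested, 809 (5.27%) were called, with 348 (2.26%) higher in the Myc-knockin and 461 (3.00%) higher in the p53-driven tumors. The count ranged from 5 without F368 to 1588 without M9. The median log2 fold change over all genes tested was 0.14.

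All 10 BMP genes passed the filter on low counts and were tested. Nog passed only through Myc-knockin tumors, with 10 or fewer reads in each p53-driven tumor, so its values are descriptions only. The number called was 0 in edgeR and 0 in limma-voom, and DESeq2 called Id1 and Grem1. Over all genes tested, DESeq2 called more genes than either of the other methods. An unadjusted p under 0.05 was found for 5 of the 10 genes (Bmp7, Bmpr1a, Nog, Grem1 and Id1) and for 26.8% of all genes tested. Only Nog had values that did not overlap between the groups, as did 13.0% of all genes tested. The log2 fold change was positive for 6 genes and negative for 4, with a median of 0.62.

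**Figure D1:**
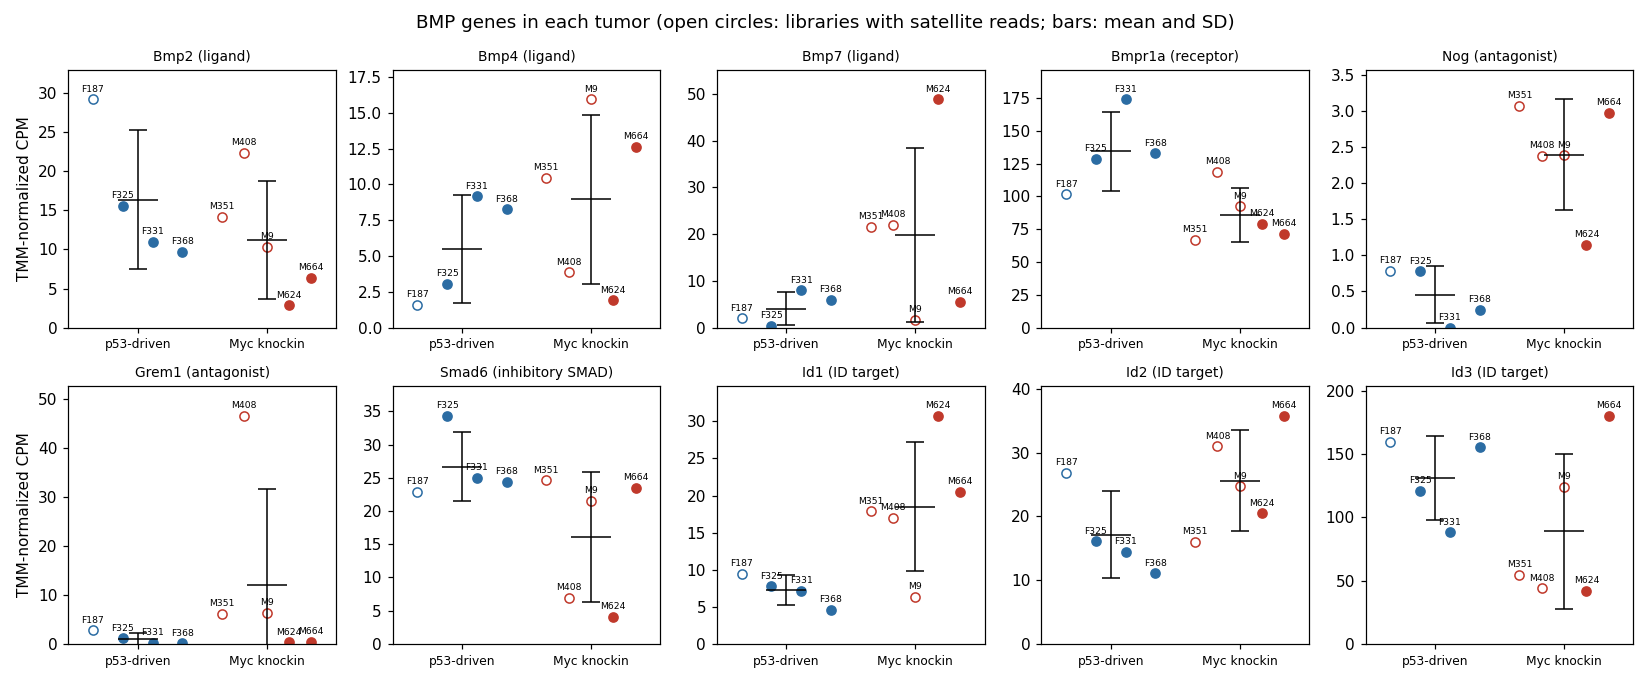
TMM-normalized CPM of the 10 BMP genes in each of 4 p53-driven (blue) and 5 Myc-knockin (red) tumors, with a linear axis from 0 for each gene; open circles are the 4 libraries with satellite reads, and bars give the mean and SD, drawn no lower than 0. Nog is higher in every Myc-knockin tumor than in any p53-driven tumor, Id1 is higher in all but M9, and the Grem1 mean rests on M408 with 46.5 CPM.

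Bmp2, a ligand of osteoblast differentiation, lies on chr2:133552159-133562885 (ENSMUSG00000027358). Its levels were 29.2, 15.6, 11.0 and 9.73 CPM in F187, F325, F331 and F368 and 14.2, 22.3, 10.4, 2.86 and 6.39 CPM in M351, M408, M9, M624 and M664. The highest value was in a p53-driven and the lowest in a Myc-knockin tumor, and the groups overlapped. The means were 16.4 ± 8.93 (SD, n = 4) and 11.2 ± 7.52 CPM (SD, n = 5). The log2 fold change of Bmp2 was -0.55 ± 0.56 SE (adjusted p = 0.564), and it turned to 0.07 (adjusted p = 0.935) without M624 and M664.

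Bmp4 (ENSMUSG00000021835, chr14:46383520-46390669), a ligand related to Bmp2 in sequence, is the gene with the E-box match shown above. It had 1.58, 3.03, 9.17 and 8.27 CPM in F187, F325, F331 and F368 and 10.5, 3.85, 15.9, 1.91 and 12.6 CPM in M351, M408, M9, M624 and M664. M9, M664 and M351 were above every p53-driven tumor, while M408 and M624 lay within the p53-driven range. In M351 and M9 the 17 and 20 reads of Bmp4 stood beside 2.52 and 2.80 expected from genomic background. Between the groups the log2 fold change was 0.63, with an interval from -0.88 to 2.15 (adjusted p = 0.590), and it was 0.12 without the 4 libraries with satellite reads. The annotated genes Gm15217 and Gm15222 overlap Bmp4 on the opposite strand, and the strand setting of the counting is not given in the sources used here.

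Bmp7 (ENSMUSG00000008999, chr2:172868012-172940321), a ligand known for its part in kidney, eye and skeletal development, varied the most among the 3 ligands. It had 1.97, 0.39, 7.96 and 5.96 CPM in F187, F325, F331 and F368 and 21.5, 22.0, 1.59, 48.9 and 5.44 CPM in M351, M408, M9, M624 and M664. M351, M408 and M624 were above every p53-driven tumor, M664 and M9 were not, and M624 gave 49.1% of the sum over the Myc-knockin tumors. The means were 4.07 ± 3.49 (SD, n = 4) and 19.9 ± 18.6 CPM (SD, n = 5), and the log2 fold change was 2.28 ± 0.94 SE (adjusted p = 0.149). It was 1.68 (adjusted p = 0.278) without M624 and 1.96 (adjusted p = 0.226) without M624 and M664. In M9 the 2 counts of Bmp7 were fewer than the 5.00 expected from genomic background, so a level there was not detectable at this depth.

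The mix of these 3 ligands therefore differed from tumor to tumor. Levels per kilobase of exon of the 3 ligands together were 9.42, 5.82, 9.15 and 7.90 CPM per kilobase in the p53-driven tumors in the order above, and 14.0, 13.5, 10.4, 13.8 and 8.76 in the Myc-knockin tumors. Bmp2 made up 87.3% and 75.2% of this sum in F187 and F325 and 5.82% in M624. It was also the first of the 3 in M408 with 46.7%. Bmp7 made up 88.0% in M624, 40.6% in M408 and 38.3% in M351, whereas M9 with 3.81% and M664 with 15.5% lay within the p53-driven range of 1.66% to 21.6%. Of the 3, Bmp4 was highest in M9 with 68.2% and in M664 with 64.0%. The 5 Myc-knockin tumors thus did not share a leading ligand among these 3. Other ligands were left out of the sum. In the same unit Bmp3 averaged 21.9 and Bmp8a 13.8 over the p53-driven tumors, and 5.31 and 4.22 over the Myc-knockin tumors. The largest averages of the 3 ligands were 4.61 for Bmp2 in the p53-driven and 4.95 for Bmp7 in the Myc-knockin tumors.

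**Figure D2:**
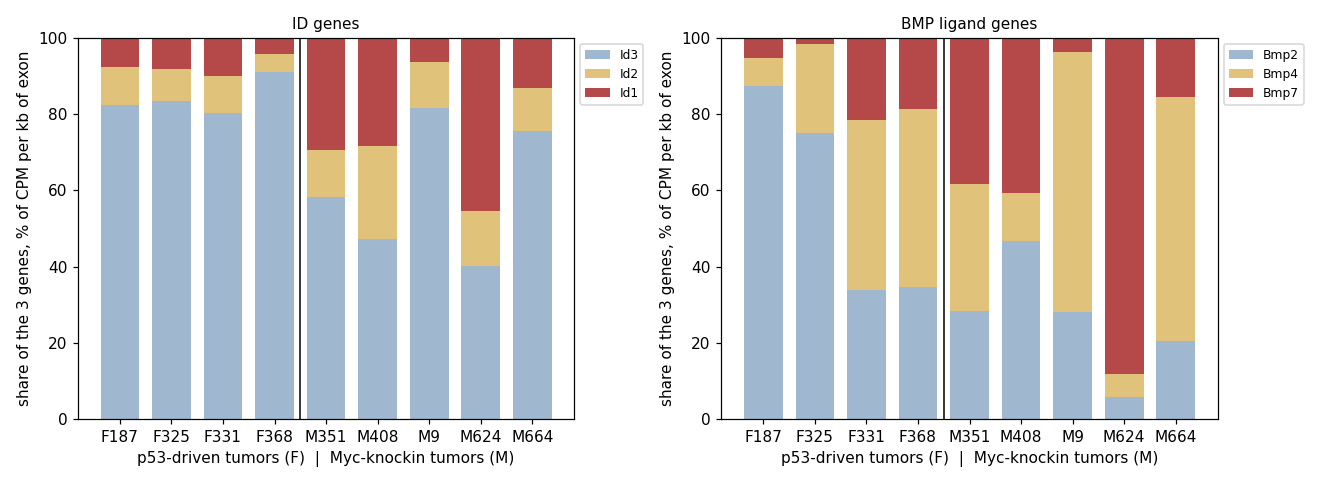
Stacked bars from 0 to 100 for each of the 9 tumors, with Id1, Id2 and Id3 on the left and Bmp2, Bmp4 and Bmp7 on the right. Each part is the share, in percent, that a gene takes of the summed CPM per kilobase of exon of the genes in its panel. Other ligands are not in the sum. Bmp7 takes 88.0% of the ligand sum in M624 and Bmp4 68.2% in M9, and the Id1 share is highest in M624 with 45.5% and lowest in F368 with 4.18%.

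Bmpr1a (ENSMUSG00000021796, chr14:34410734-34503341) encodes the type I receptor ALK3, which binds BMP2 and BMP4. It had 102, 129, 174 and 133 CPM in F187, F325, F331 and F368 and 67.1, 119, 92.4, 79.0 and 71.6 CPM in M351, M408, M9, M624 and M664. All Myc-knockin tumors except M408 were below the lowest p53-driven tumor. The means were 134 ± 29.9 (SD, n = 4) and 85.8 ± 20.8 CPM (SD, n = 5), and the log2 fold change was -0.65, with an interval from -1.24 to -0.06 (adjusted p = 0.152). It ranged from -0.93 to -0.47 over the alternatives other than leaving out single tumors, and the gene passed the threshold in none of its 22 alternatives. The antisense gene Gm17110 overlaps Bmpr1a on the opposite strand.

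Nog (ENSMUSG00000048616, chr11:89300638-89302332), a single-exon gene that encodes noggin, an antagonist of BMP2, BMP4 and BMP7, had few reads in the p53-driven tumors and in M351, M408 and M9. It had 0.79, 0.78, 0 and 0.24 CPM in F187, F325, F331 and F368 and 3.08, 2.38, 2.39, 1.14 and 2.98 CPM in M351, M408, M9, M624 and M664. Every Myc-knockin value was above every p53-driven value, and the log2 fold change was 2.45, with an interval from 0.33 to 4.58 (adjusted p = 0.135). These levels rest on 2, 10, 0 and 2 reads in the p53-driven and 5, 13, 3, 30 and 69 reads in the Myc-knockin tumors. Nog thus passed the filter on low counts only through Myc-knockin tumors. It fell below the filter when M351, M408, M624 or M664 was left out, and also without M624 and M664. The separation of the groups and the fold change of Nog are therefore descriptions only. In M351 and M9 the 5 and 3 reads stood beside 1.90 and 2.11 expected from genomic background, and F187 had 1.21 expected. The counts in M624 and M664, by contrast, stood beside 0.07 and 0.08 expected background reads. Without the 4 libraries with satellite reads the log2 fold change was 2.57 (adjusted p = 0.141), with only M624 and M664 left in the Myc-knockin group.

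Grem1 (ENSMUSG00000074934, chr2:113746164-113758646) encodes gremlin, an antagonist of BMP2, BMP4 and BMP7 that mesenchymal cells secrete. It had 2.76, 1.09, 0.17 and 0.12 CPM in F187, F325, F331 and F368 and 6.16, 46.5, 6.37, 0.30 and 0.39 CPM in M351, M408, M9, M624 and M664. M408 stood alone with 254 reads and 77.9% of the Myc-knockin sum, and M624 and M664 lay within the p53-driven range. In M351 and M9 the 10 and 8 reads stood beside 4.66 and 5.16 expected from genomic background. Its log2 fold change was 3.78 ± 1.53 SE (adjusted p = 0.145) and 1.67 (adjusted p = 0.437) without M408 and 4.58 without F187, and DESeq2 called it (adjusted p = 0.0229). With a yes-or-no term for the 4 libraries with satellite reads in the edgeR fit, the log2 fold change was 0.70 (adjusted p = 0.704). Grem1 passed the filter on low counts only through F187, M351, M408 and M9, which are these 4 libraries. It fell below the filter with background subtracted, without M624 and M664, and without the 4 libraries with satellite reads. It also fell below the filter that needs at least 10 counts in every tumor.

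Smad6 (ENSMUSG00000036867, chr9:63953076-64022059), the inhibitory SMAD and a direct target of BMP signaling, is the gene with the SMAD palindrome at its start. It had 22.9, 34.4, 25.0 and 24.4 CPM in F187, F325, F331 and F368 and 24.6, 6.96, 21.5, 4.08 and 23.5 CPM in M351, M408, M9, M624 and M664. M408 and M624 were low, and the other 3 Myc-knockin tumors lay at or next to the p53-driven values. Its log2 fold change was -0.76, with an interval from -1.85 to 0.34 (adjusted p = 0.354).

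Id1 (ENSMUSG00000042745, chr2:152736251-152737410) was the BMP gene with the smallest adjusted p. It had 9.48, 7.78, 7.18 and 4.62 CPM in F187, F325, F331 and F368 and 17.9, 17.0, 6.37, 30.8 and 20.5 CPM in M351, M408, M9, M624 and M664. Only M9 lay within the p53-driven range. The means were 7.26 ± 2.01 (SD, n = 4) and 18.5 ± 8.73 CPM (SD, n = 5), with a log2 fold change of 1.38 ± 0.43 SE, an interval from 0.45 to 2.32 and an adjusted p of 0.0747. The M9 value rests on 8 reads, with an exact Poisson interval from 3.45 to 15.8 that covers counting error only. Id1 was called higher without M9 (1.59, adjusted p = 0.0264), without M351 and M9 (1.69, adjusted p = 0.0271), when the 4 libraries with satellite reads were left out (1.98, adjusted p = 0.0162), with satellite reads as a term (1.45, adjusted p = 0.0493) and with DESeq2 (1.41, adjusted p = 0.0141). It was not called in the other 16 of its 21 alternatives, with adjusted p from 0.0533 with background subtracted to 0.293 with library size alone. Among these were limma-voom (adjusted p = 0.0564), the fit without M624 and M664 (1.03, adjusted p = 0.162) and the fits without F325, F331 or F368 (adjusted p from 0.177 to 0.248). The log2 fold change was positive in all 21. Leaving out the 4 libraries with satellite reads kept only M624 and M664 as Myc-knockin tumors, so group and library kind could not be told apart there.

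Id2 (ENSMUSG00000020644, chr12:25093799-25097140) had 26.9, 16.1, 14.4 and 11.1 CPM in F187, F325, F331 and F368 and 16.0, 31.0, 24.7, 20.5 and 35.8 CPM in M351, M408, M9, M624 and M664. M408 and M664 were above and the other 3 Myc-knockin tumors within the p53-driven range. Its log2 fold change was 0.60, with an interval from -0.16 to 1.36 (adjusted p = 0.291).

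Id3 (ENSMUSG00000007872, chr4:136143497-136145755) had 160, 121, 88.2 and 155 CPM in F187, F325, F331 and F368 and 54.8, 44.0, 124, 42.0 and 181 CPM in M351, M408, M9, M624 and M664. M351, M408 and M624 lay below every p53-driven tumor, M9 lay within their range, and M664 had the highest value of all 9. With all 9 tumors the log2 fold change was -0.56, with an interval from -1.56 to 0.45 (adjusted p = 0.466). It was -0.96 without M664 and -0.09 without the 4 libraries with satellite reads.

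**Figure D3:**
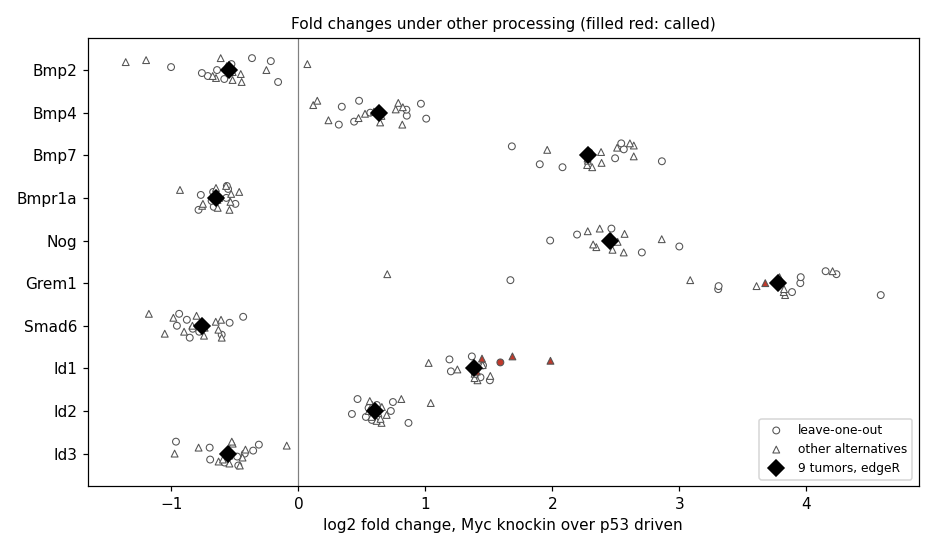
Log2 fold change, Myc-knockin minus p53-driven, of the 10 BMP genes with edgeR over all 9 tumors (diamonds), with each tumor left out in turn (circles) and under the other alternatives (triangles); filled red symbols are calls. Id1 is positive throughout, from 1.03 to 1.98, Bmp2 alone crosses 0, and Grem1 runs from 0.70 to 4.58.

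The 3 ID genes thus did not follow each other. Per kilobase of exon, Id1 made up 7.55%, 8.30%, 10.1% and 4.18% of the summed ID level in F187, F325, F331 and F368. In M351, M408, M9, M624 and M664 its share was 29.3%, 28.3%, 6.46%, 45.5% and 13.3%. Every Myc-knockin tumor except M9 was above the p53-driven range. Id3 took from 80.3% to 91.1% in the p53-driven tumors and from 40.1% in M624 to 81.6% in M9 among the Myc-knockin tumors. Averaged over all 9 tumors, the level per kilobase was 60.2 CPM for Id3, 16.9 for Bmpr1a, 11.6 for Id1, 8.95 for Id2 and 6.50 for Smad6. The 3 ligands followed with 3.80 for Bmp2, 3.30 for Bmp4 and 3.20 for Bmp7, and the antagonists were lowest with 1.71 for Grem1 and 0.90 for Nog. The ranges of all neighbors in this order overlapped, also at the top, where the lowest Id3 level was 23.4 CPM per kilobase in M624 and the highest Bmpr1a level 27.4 in F331.

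Likeness to Id1, Id2 and Id3 was measured as the root mean square difference of log2 CPM over the 9 tumors, after each gene was centered on its own mean, among 9538 tested genes with a mean of at least 10 CPM. Closest to Id1 was Las1l, a factor of ribosome biogenesis, at 0.19. Las1l was called higher (log2 fold change 1.35, adjusted p = 0.0463). Glrx3 and Gemin5 followed at 0.23 each. Closest to Id2 were Pear1 at 0.22 and Shank3 and Fbxo8 at 0.30 each, and closest to Id3 were Metrnl at 0.28, Foxj2 at 0.30 and Rnf215 at 0.31. Id2 was at 0.73 from Id1, and Id3 was at 1.46 from Id1 and at 0.64 from Smad6. The 9 points share their libraries and depths, and the distances are descriptions only.

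The rest of the pathway was read from 49 genes in 6 lists, of which 42 were tested. In the Myc-knockin tumors 1 gene was called higher and 3 lower, which is to be read against the 2.26% and 3.00% of all genes. The log2 fold change was positive for 15 and negative for 27 of the 42, with a median of -0.37 beside 0.14 over all genes tested, and 8 genes had groups that did not overlap, beside 13.0% of all genes. Pathway genes named below that were neither called nor among the 2 of highest mean CPM in their list (Rgma, Chrdl1, Smad1 and Smad7) were picked after their values were seen.

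Of 11 other BMP and GDF ligands 6 were tested and none was called by edgeR, with 3 at an unadjusted p under 0.05. Bmp3, which is known to oppose osteogenic BMPs, was the most abundant. It had 152, 90.8, 79.8 and 324 CPM in F187, F325, F331 and F368 and 56.6, 41.9, 54.2, 9.98 and 33.6 CPM in M351, M408, M9, M624 and M664. All Myc-knockin tumors were below all p53-driven tumors. The log2 fold change of Bmp3 was -2.06 ± 0.54 SE (adjusted p = 0.0501), and it was called in 7 of 22 alternatives, among them DESeq2 and limma-voom. Bmp8a averaged 33.1 ± 25.6 CPM over the p53-driven (SD, n = 4) and 10.1 ± 6.94 CPM over the Myc-knockin tumors (SD, n = 5), with a log2 fold change of -1.71 (adjusted p = 0.140).

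Of 9 receptors and co-receptors, all tested, 1 rose and 1 fell. Acvr1 encodes the type I receptor ALK2, in which activating mutations cause fibrodysplasia ossificans progressiva. It had 65.2, 73.1, 77.5 and 79.4 CPM in F187, F325, F331 and F368 and 33.2, 31.5, 47.8, 17.0 and 23.1 CPM in M351, M408, M9, M624 and M664. The p53-driven values were close together and all above the Myc-knockin values. Acvr1 had a log2 fold change of -1.30 ± 0.30 SE (adjusted p = 0.0390). The call was lost in 13 of 22 alternatives, with any 1 tumor other than M9 left out among them (adjusted p from 0.0506 without M408 to 0.127 without F368) and without M624 and M664 (-0.93, adjusted p = 0.0554).

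Acvr2b, a type II receptor shared by activins and BMPs, went the other way. It had 3.16, 2.65, 2.85 and 2.19 CPM in F187, F325, F331 and F368 and 7.39, 10.8, 8.76, 16.7 and 11.1 CPM in M351, M408, M9, M624 and M664. The groups did not overlap, and the log2 fold change was 2.04 ± 0.39 SE (adjusted p = 0.0252). The call was lost in 6 of 21 alternatives, which include leaving out F187 (adjusted p = 0.0508), F325 (adjusted p = 0.0866), F331 (adjusted p = 0.0931) or F368 (adjusted p = 0.112). It held without M624 and M664 (1.81, adjusted p = 0.0431), and it was 2.44 (adjusted p = 0.0120) when the 4 libraries with satellite reads were left out. That last fit kept only M624 and M664 in the Myc-knockin group. Bmpr2, the main type II BMP receptor, averaged 371 ± 71.1 CPM over the p53-driven (SD, n = 4) and 190 ± 94.8 CPM over the Myc-knockin tumors (SD, n = 5), with a log2 fold change of -0.96 (adjusted p = 0.151). Rgma, a BMP co-receptor, had groups that did not overlap and a log2 fold change of 2.93 (adjusted p = 0.0823), which was 1.12 without M624, where it had 104 CPM.

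Of 11 secreted and membrane antagonists 9 were tested and 1 fell. Twsg1 encodes twisted gastrulation, a secreted protein that binds BMPs together with chordin. It had 171, 172, 159 and 271 CPM in F187, F325, F331 and F368 and 46.8, 50.2, 67.7, 89.8 and 59.6 CPM in M351, M408, M9, M624 and M664. All Myc-knockin tumors were below all p53-driven tumors. Twsg1 had a log2 fold change of -1.62 ± 0.29 SE (adjusted p = 0.0217). The call was lost in 5 of 22 alternatives, with library size alone, with all genes of at least 1 count, and without F325 (adjusted p = 0.0709), F331 (adjusted p = 0.0651) or F368 (adjusted p = 0.0909). Bambi, a pseudoreceptor that dampens BMP and TGF-beta signals, averaged 67.7 ± 12.2 CPM over the p53-driven (SD, n = 4) and 32.6 ± 17.7 CPM over the Myc-knockin tumors (SD, n = 5), without overlap, and a log2 fold change of -1.07 (adjusted p = 0.135). Chrdl1, a chordin-like BMP antagonist, had a log2 fold change of 2.85 (adjusted p = 0.0574). It was called in 3 of 21 alternatives, which were DESeq2 (adjusted p = 0.00177), limma-voom (adjusted p = 0.0248) and all genes of at least 1 count (adjusted p = 0.0439), and its value was 4.03 without F325.

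The log2 fold changes of 7 SMADs and SMURFs, all tested, ran from -1.24 for Smurf2 to -0.04 for Smad1 with a median of -0.37, and 1 of them fell. Smurf2 encodes an E3 ubiquitin ligase that marks SMADs and their receptors for degradation. It had 164, 131, 238 and 174 CPM in F187, F325, F331 and F368 and 83.7, 76.9, 98.0, 48.9 and 67.6 CPM in M351, M408, M9, M624 and M664. The groups did not overlap, and the log2 fold change of Smurf2 was -1.24 ± 0.28 SE (adjusted p = 0.0365). The call was lost in 12 of 22 alternatives, with any 1 tumor other than M408 and M9 left out among them (adjusted p from 0.0566 without M664 to 0.126 without F331). Smad5, a signal carrier of the pathway, had a log2 fold change of -0.31 (adjusted p = 0.583), and Smad7, the other inhibitory SMAD, had -0.76 (adjusted p = 0.157).

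None of 8 other BMP target genes and none of 3 E proteins was called by edgeR, with 0 and 1 at an unadjusted p under 0.05. Runx2, the master regulator of osteoblast fate, averaged 310 ± 57.8 CPM over the p53-driven (SD, n = 4) and 131 ± 73.5 CPM over the Myc-knockin tumors (SD, n = 5). The groups did not overlap and M624 was lowest with 9.18 CPM, and the log2 fold change was -1.26 (adjusted p = 0.215). Sp7, which acts after Runx2, had a log2 fold change of -0.80 (adjusted p = 0.395). Among the E proteins, the partners that ID proteins bind, Tcf4 had a log2 fold change of -0.13 (adjusted p = 0.879) and Tcf12 of 0.23 (adjusted p = 0.694).

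**Figure D4:**
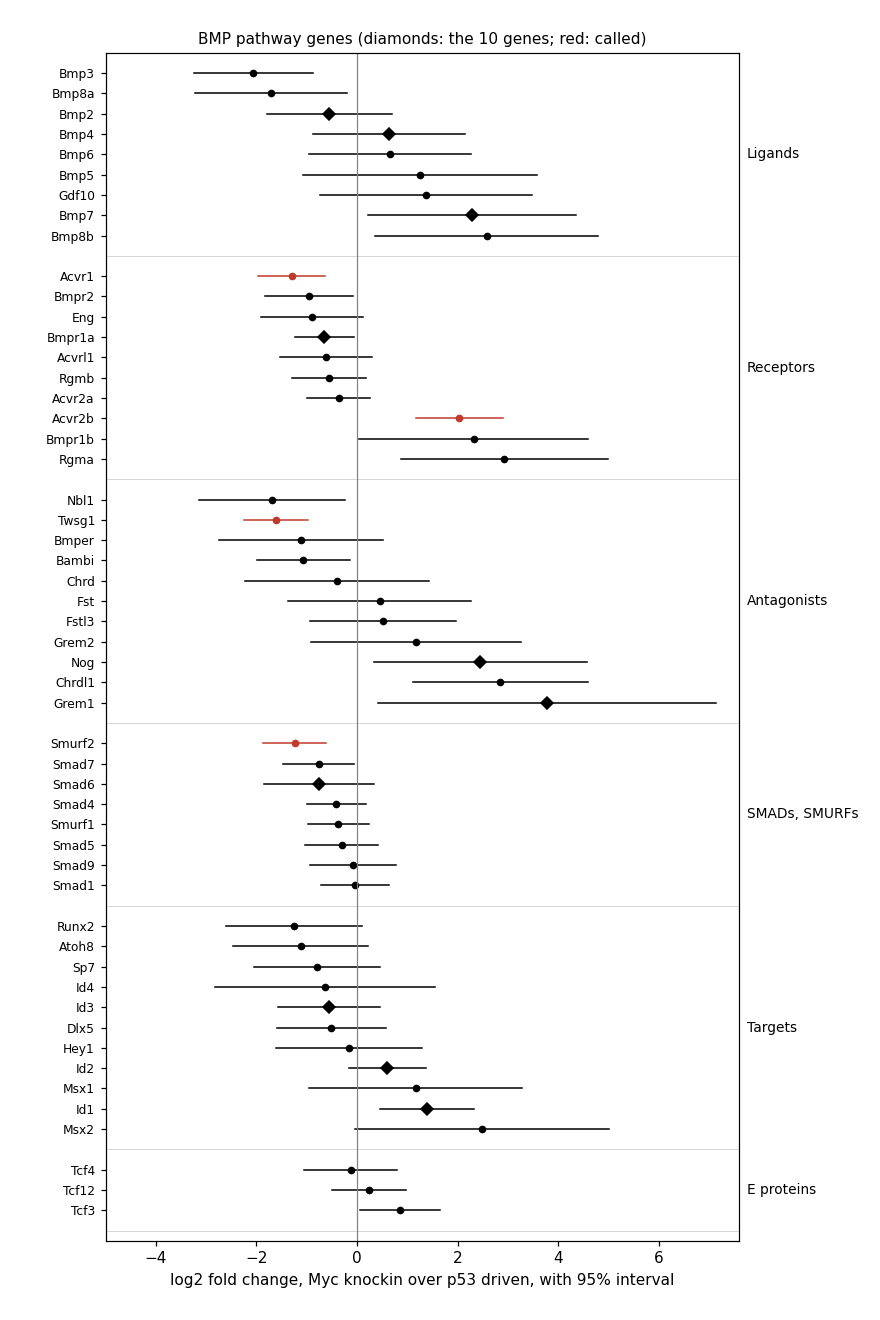
Log2 fold change, Myc-knockin minus p53-driven, with its 95% interval from edgeR, for the 10 BMP genes and the 42 tested genes of the other pathway lists, grouped by role. Intervals of the antagonists Grem1 and Nog are the widest of the 10 BMP genes, and the called genes are Acvr2b at 2.04, Acvr1 at -1.30, Twsg1 at -1.62 and Smurf2 at -1.24.

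Several of these genes are also expressed by cells other than tumor cells. In whole tumors fewer cells of a type and less RNA per cell cannot be told apart. The labeled tissue was checked against its defining markers. The 12 osteoblast markers, Runx2 and Sp7 among them, summed to between 62395 and 140919 CPM in the p53-driven and between 3416 (M624) and 40389 CPM (M664) in the Myc-knockin tumors, and 2 of 12 were called lower (Bglap and Bglap2), with a median log2 fold change of -1.43. Col1a1 and Col1a2 carried most of this sum, with 40517 and 18856 CPM in F187 and 2098 and 1164 CPM in M624. Neither was called (adjusted p = 0.0682 and 0.0817). Of the 12 markers, 6 had groups that did not overlap. The 8 osteoclast markers summed to between 2716 and 14151 CPM against between 124 and 2570 CPM, with 6 of 8 called lower and a median of -4.01. The 10 macrophage markers summed to between 710 and 1295 CPM against between 249 and 849 CPM, with 3 of 10 called lower, 4 of 10 log2 fold changes positive and a median of -0.36. Of the genes above, Bmpr1a, Acvr1, Twsg1, Smurf2 and Bmp3 had negative log2 fold changes, and Acvr2b, Id1 and Nog had positive ones. The part of these cell types in those values was not tested.

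The 10 endothelial markers stood at 443, 375, 527 and 410 CPM in F187, F325, F331 and F368 and at 220, 335, 341, 118 and 609 CPM in M351, M408, M9, M624 and M664. Endothelial cells express BMP target genes such as Id3 and Smad6. The endothelial sum and Id3 were both highest in M664 and lowest in M624. Smad6 was highest in F325 with 34.4 CPM and lowest in M624 with 4.08 CPM. Id1 was highest in M624 with 30.8 CPM and lowest in F368 with 4.62 CPM. None of the 10 endothelial markers was called, and the part of endothelial cells in the values of Id1, Id3 and Smad6 was not tested. The 7 pericyte markers summed to between 534 and 907 CPM against between 264 and 494 CPM, and the 6 fibroblast markers to between 274 and 460 CPM against between 83.7 and 297 CPM. Their medians were -0.76 and -0.62 over the 6 and 5 tested, with none called. The 8 chondrocyte markers summed to between 670 and 4177 CPM against between 196 and 476 CPM with none called and a median of -0.54.

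Admixture of other tissues was uneven but did not separate the groups. The 8 skeletal muscle markers ranged from 12.2 to 5428 CPM in the p53-driven and from 3.47 to 2178 CPM in the Myc-knockin tumors. The 7 lymphocyte markers summed to at most 9.08 CPM against at most 24.7 CPM, and the 4 adipocyte markers to at most 24.4 against at most 16.7 CPM. Only 1 gene was tested in each of the lymphocyte and adipocyte lists. No marker of any list was at 0 in all 9 tumors.

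**Figure D5:**
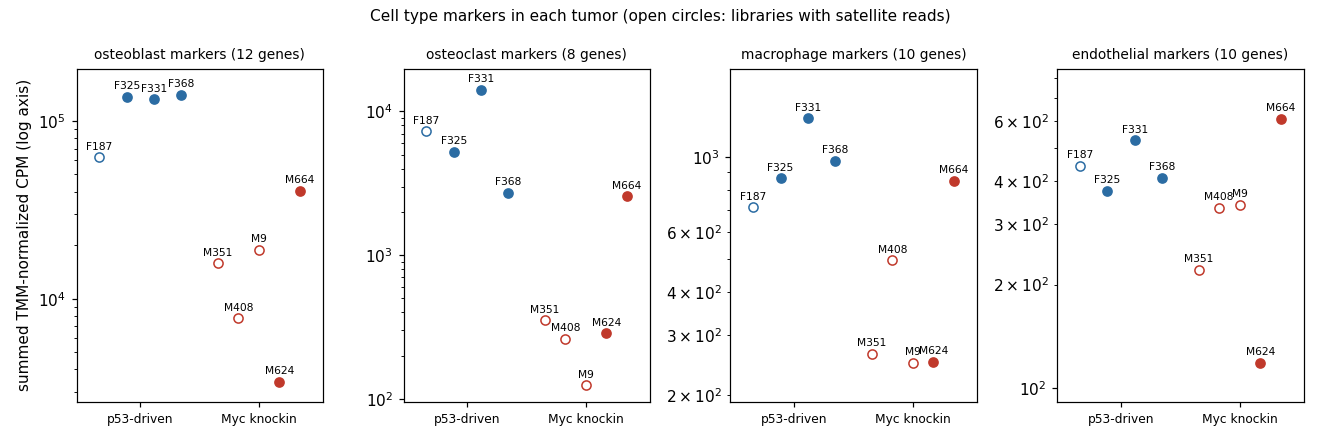
Summed TMM-normalized CPM, on log axes, of the osteoblast, osteoclast, macrophage and endothelial markers in each p53-driven (blue) and Myc-knockin (red) tumor; open circles are the 4 libraries with satellite reads. The osteoblast and osteoclast sums are higher in every p53-driven tumor, and the endothelial sum is highest in M664 with 609 CPM and lowest in M624 with 118 CPM. Col1a1 and Col1a2 carry most of the osteoblast sum.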

How the data were processed

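RNA-Seq of 9 whole tumors, 4 p53-driven and 5 Myc-knockin, was used. The authors enriched mRNA with oligo-dT, prepared stranded libraries, trimmed reads with Trim Galore, mapped them to mm10 with STAR and deposited raw counts per gene from featureCounts. The strand setting and the handling of multiply mapped reads are not given in the sources used here. Column names match no numbered sample, and each column therefore stands for its group alone. Counts were tested in R 4.3.3 with edgeR 4.0.16 (TMM, filterByExpr with a minimum count of 10, glmQLFit and glmQLFTest, no covariates), with Benjamini-Hochberg adjustment over 15365 genes and a prior count of 2 for log2 CPM. The functions were tested on simulated counts. DESeq2 1.42.0, limma-voom (limma 3.58.1), other scalings, other filters, removal of libraries and a term for satellite reads were alternatives, and the fit without M351 and M9 was chosen after seeing the data. Positions and exon lengths are from GENCODE, which held 55111 of 55367 identifiers. The Poisson interval and the floors cover counting error only, whereas the intervals of log2 fold changes include the spread between tumors.

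The 10 genes and all lists were chosen with earlier results of these data known. Named are the 10 genes, Myc, each called pathway gene, the 2 pathway genes of highest mean CPM in each list, the 3 genes most like each of Id1, Id2 and Id3, and at most 2 genes of each marker list (osteoblast, chondrocyte, osteoclast, macrophage, endothelial, pericyte, fibroblast, lymphocyte, skeletal muscle and adipocyte). Rgma, Chrdl1, Smad1, Smad7, Col1a1 and Col1a2 are exceptions, named after their values were seen. Total counts from 2716322 to 17073285 set the precision.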

Additional observations from a re-analysis of the deposited data

Results flagged for a closer look

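Values were examined in 56 groups, the 2 groups of 28 genes (the 10 BMP genes, Myc and the 17 other pathway genes given a fold change above). In 4 of them a single tumor lay farther from the rest of its group than Dixon's 95% limit allows, a limit that chance passes in about 1 of 20 groups. Pathway genes that are not named were not examined. Grem1 had 46.5 CPM in M408, and the nearest Myc-knockin tumor had 6.37 CPM. Tcf4, an E protein, was also highest in M408, with 503 CPM beside 237 CPM in the next Myc-knockin tumor. Rgma had 104 CPM in M624 beside 8.97 CPM in the next Myc-knockin tumor. Twsg1 had 271 CPM in F368 beside 172 CPM in the next p53-driven tumor. Its call was lost without F368 (log2 fold change -1.43, adjusted p = 0.0909). The same held without F325 (adjusted p = 0.0709) or F331 (adjusted p = 0.0651), which were not outliers.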

How the results depend on the processing

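The depth of M9 and M351 limits what can be seen for Nog and Grem1, and the depth of M9 for Bmp7, whose reads there are near the estimated background. No paired analysis was possible because the columns carry no replicate numbers. Over all genes tested, 809 calls became 136 with library size alone, 494 with all genes of at least 1 count, 1316 with at least 10 counts in every tumor, 2670 with DESeq2, 1663 with limma-voom, 4595 without the 4 libraries with satellite reads, 2016 with satellite reads as a term and 1926 without M351 and M9. With single tumors left out they ranged from 5 (without F368) to 1588 (without M9), with 335 without F187, 8 without F325, 6 without F331, 371 without M351 and 375 without M624. The share of calls that were higher was 43.0%, and it was 64.5% with upper-quartile normalization, 58.0% with DESeq2 and 59.9% with satellite reads as a term. The median log2 fold change of all genes was 0.14 with TMM, 0.24 with upper-quartile normalization, -0.04 with limma-voom, 0.97 when all genes of at least 1 count were kept and 0.03 with library size alone. Of the 10 BMP genes, 2 were called with DESeq2, beside 2670 of 15365 genes tested. The number of BMP genes called was 1 (Id1) without the 4 libraries with satellite reads, with satellite reads as a term and without M351 and M9. With single tumors left out the number was 0 to 1, the 1 being Id1 without M9. Of the other pathway genes, 4 were called, and 2 with upper-quartile normalization, 0 with library size alone, 2 with all genes of at least 1 count, 7 with DESeq2, 2 with background subtracted, 2 without M624 and M664, 8 without the 4 libraries with satellite reads, 7 with satellite reads as a term and 8 without M351 and M9. With single tumors left out the number was 0 (without F325, F331 or F368) to 5 (without M9), with 1 without F187 and 2 without M351, M624 or M664. Signs turned for Bmp2 without M624 and M664 (0.071), for Tcf12 without the 4 libraries with satellite reads (-0.17), and for Tcf4 without M624 and M664 (0.27) and without M351 and M9 (0.067). With single tumors left out Tcf4 ranged from -0.590 to 0.079. None of these passed the threshold. In the fit without the 4 libraries with satellite reads, group and library kind cannot be told apart. The cause of these changes was not tested.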
